A study of Mus musculus with 12 samples.

Results

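In the mouse hippocampus, 1207 stretches of the genome carried a peak of 5-hydroxymethylcytosine (5hmC) in each of 6 captured libraries, 3 from restrained and 3 from unrestrained mice. They were found by pooling the peaks of the 6 deposited lists on chromosomes 1 to 19, joining peaks that shared at least 1 bp, and keeping the joined regions that a peak of every library overlapped. This kept 1207 of 74401 regions (1.62%), and 4 more regions on chromosomes X and Y that met the rule were left out. The presence of a peak in all 6 lists chose these regions and is not a result: they were selected on the deposited peak positions. All mice were male C57BL/6, and the labels give their age as postnatal day 28 in a tag but as 7 weeks in the treatment protocol. The stress group (6 mice) was restrained for 30 min in a conical tube, 2 h after lights-on, and then kept for 1 h in a clean cage before brief isoflurane anaesthesia and dissection. The control group (5 mice) was naive and received only the brief isoflurane anaesthesia. Each library held DNA of the hippocampus pooled from 2 mice, except 1 made from a single mouse, which by the numbers of mice is a control library that the labels do not name. RNA was sequenced from the same pools, but the deposited tables give 1 value per group.

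5hmC is made when TET enzymes oxidise 5-methylcytosine, and it is unusually abundant in neurons of the adult brain. There it is found mainly along gene bodies, while start sites rich in CG dinucleotides usually carry little of it. It is an intermediate of DNA demethylation and also a stable mark. In the capture used here the 5hmC base is tagged with a modified glucose and biotin, so a peak marks a stretch from which many tagged fragments were recovered, without single-base resolution.

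The lists differed in length. Stress libraries 1, 2 and 3 had 15177, 27784 and 31636 peaks on chromosomes 1 to 19, and control libraries 1, 2 and 3 had 17176, 27897 and 16303. Libraries with short lists were the ones most often missing where a region fell short of all 6. Among the 2425 regions found in exactly 5 libraries the missing one was control 1 for 725, stress 1 for 611 and control 3 for 597, but stress 3, stress 2 or control 2 for only 154, 161 and 177. The RNA tables listed markers of hippocampal neurons. Camk2a, a kinase of excitatory neurons, was listed at 338 FPKM for the control and 383 FPKM for the stress group, Prox1, a transcription factor of dentate granule cells, at 23.8 and 29.1, and none of 16 marker genes of other organs reached 1 FPKM. Markers of tissue that borders the hippocampus were present too. Ttr, the transthyretin gene of the choroid plexus, was at 217 FPKM for the control and 59.5 FPKM for the stress group. Its part in any difference between the groups was not tested.

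Only 11 of the 25634 annotated start sites lay inside a region found in all 6 libraries, and their sequences show what kind of start site this was. The start site itself need not be under a peak of every library. In the region of Plekhg1, for example, no base was covered by all 6. For 8 of the 11 genes RefSeq's table of GRCm38.p6 promoters has an entry. The 250 bases before the start site follow for 4 genes with 1 annotated start site in the deposited tables, written on the strand of the gene with each CG dinucleotide in capitals. The coordinates are those of the table's 300-base entry, which includes 50 bases after the start.
Csf2ra (chr19:61228369-61228668, minus strand): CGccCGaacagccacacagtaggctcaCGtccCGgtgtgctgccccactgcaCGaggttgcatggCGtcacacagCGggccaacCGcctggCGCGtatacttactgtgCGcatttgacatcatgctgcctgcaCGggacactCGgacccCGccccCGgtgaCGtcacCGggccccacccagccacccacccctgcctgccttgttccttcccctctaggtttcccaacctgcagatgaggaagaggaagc
9330111N05Rik (chr13:80963824-80964123, plus strand): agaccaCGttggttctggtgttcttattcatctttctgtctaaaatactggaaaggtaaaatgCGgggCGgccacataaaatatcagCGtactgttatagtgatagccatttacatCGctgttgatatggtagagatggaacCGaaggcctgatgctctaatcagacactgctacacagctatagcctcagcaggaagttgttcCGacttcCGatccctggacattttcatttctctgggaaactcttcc
Lsmem1 (chr12:40199266-40199565, minus strand): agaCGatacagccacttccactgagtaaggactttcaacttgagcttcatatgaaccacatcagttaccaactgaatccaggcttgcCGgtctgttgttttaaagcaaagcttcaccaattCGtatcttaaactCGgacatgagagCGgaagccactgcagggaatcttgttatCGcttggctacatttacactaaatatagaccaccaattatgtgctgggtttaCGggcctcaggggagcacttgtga
Tacr2 (chr10:62252188-62252487, plus strand): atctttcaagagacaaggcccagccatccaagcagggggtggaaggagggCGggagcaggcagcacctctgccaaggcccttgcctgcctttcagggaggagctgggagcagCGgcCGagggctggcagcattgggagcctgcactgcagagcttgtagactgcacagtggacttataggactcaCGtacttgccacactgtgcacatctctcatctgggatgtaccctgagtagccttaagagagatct
The motif counted was CG, which reads the same on both strands. These 4 stretches hold 17, 8, 7 and 4 CG dinucleotides, and Aars, a further gene of this kind, holds 7. The median over all 32851 promoters of the table is 6, and 78.3% of them hold at most the 17 found at Csf2ra. Plekhg1, Islr and 6720468P15Rik have 2 annotated start sites each, and an entry need not be for the one inside the region. Their entries hold 3 CG for Plekhg1, 1 for Islr, and 4 and 8 for 6720468P15Rik. The promoters with an entry were thus neither all rich nor all poor in CG. Csf2ra, which encodes a subunit of the receptor for the growth factor GM-CSF, had the most. Another of the 11 start sites belongs to a microRNA, Mir6769b, annotated inside Unc13a, which encodes a priming factor of synaptic vesicles. Its mature 5p form is printed with the seed (bases 2 to 8) in capitals.
mmu-miR-6769b-5p: cCUGGUGGguggggaagagc

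The number of regions fell steeply with the number of libraries that shared them: 42365 regions had a peak in 1 library, 15776 in 2, 8098 in 3, 4530 in 4, 2425 in 5 and 1207 in all 6. Without stress 1 the regions shared by all remaining libraries numbered 1816, and without control 1 they numbered 1932. The regions of all 6 libraries were long, with a median of 1600 bp (477 to 5362 bp), against 1489 bp for those of 5 libraries and 901 bp for those of 1. Joining peaks from more lists lengthens a region, so length is in part a product of the rule. In 1146 of the 1207 regions every library contributed a single peak. The bases covered by all 6 libraries at once made up 50.4% of the total length of 2.11 Mb, lay in 1181 regions and had a median of 848 bp. In the other 26 regions no base was common to all 6 libraries, so they were held together by a chain of overlaps. The library that covered a region least still covered a median of 62.0% of it.

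Within each list, peaks of these regions ranked high. They were 3.88 to 8.03% of the peaks of a library but 61 to 70 of its 100 top-scoring peaks and 300 to 346 of its top 1000. The median percentile of their score within the list was 79.5 in stress 1, 88.9 in stress 2, 88.6 in stress 3, 81.8 in control 1, 89.4 in control 2 and 83.2 in control 3. It was lowest in the 3 libraries with the shortest lists. Peaks inside the regions had median lengths of 1082 to 1295 bp, and peaks elsewhere in the same lists 885 to 1054 bp. The rule asked for a peak in every list, which favours strong and long peaks. Rank and peak length are therefore in part its product and not separate results. The score is the authors' value for each peak, and no difference between libraries was read from it.

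**Figure D1:**
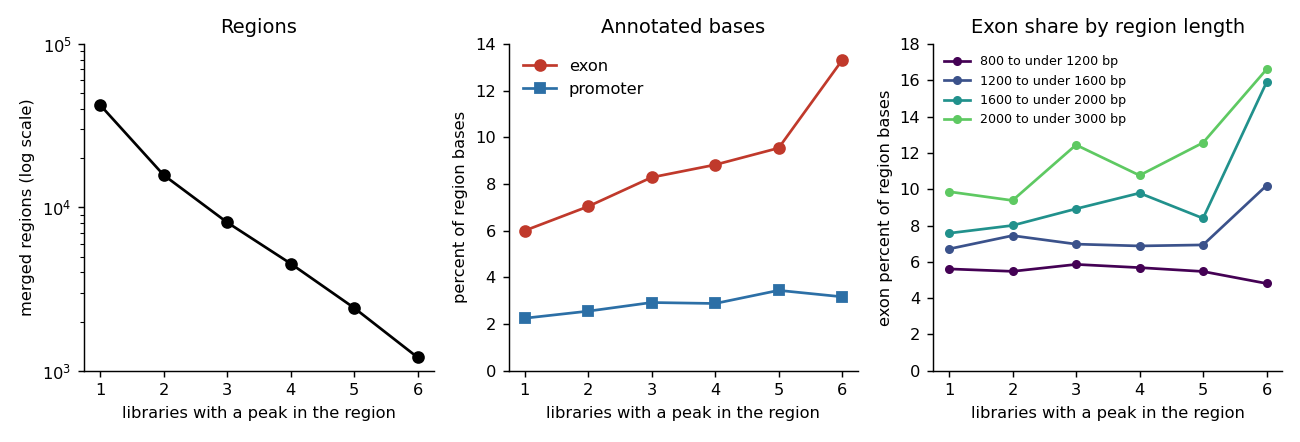
Merged 5hmC regions by the number of libraries with a peak (x axes). Left, number of regions on a log scale; middle, percent of region bases in exons and in promoters; right, exon percent for 4 classes of region length. The exon share rose from 6.00% in regions of 1 library to 13.3% in regions of all 6, but in regions of 800 to under 1200 bp it was 5.61% and 4.81%.

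Exons took a larger part of these regions than of the less shared ones. Of their bases, 13.3% were exonic, 3.17% lay within 1 kb of a start site (promoter), 51.8% were intronic and 31.7% were intergenic, each base counted once in this order. The exon share was 6.00, 7.04, 8.29, 8.83 and 9.54% in regions of 1, 2, 3, 4 and 5 libraries, and the step from 5 to 6 libraries was the largest of the 5. The promoter share ranged from 2.25 to 3.45% over the same classes without such a step. The intergenic share was 39.6% in regions of 1 library. These are descriptions with no test, since the number of libraries chose the regions.

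Region length changed this picture. Among regions of 800 to under 1200 bp the exon share was 4.81% in the 208 found in all 6 libraries and 5.61% in those of a single library. Among regions of 1200 to under 1600 bp it was 10.2% (391 regions) and 6.71%, among those of 1600 to under 2000 bp 15.9% (290 regions) and 7.58%, and among those of 2000 to under 3000 bp 16.6% (249 regions) and 9.86%. The higher exon share of the regions in all 6 libraries was thus seen from 1200 bp upwards and not in the short ones. In the shortest class it was the promoter share that stood higher, at 6.75% in regions of all 6 libraries and 2.44% in those of 1. Within the regions, exons made up 14.3% of the bases common to all libraries and 12.3% of the remaining bases.

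Exons of every kind were reached more often than by single-library regions. A last exon was touched by 125 of the 1207 regions (10.4%) and by 4.45% of the regions of 1 library, an internal exon by 241 (20.0%) and 13.7%, a first exon by 21 (1.74%) and 0.836%, and the exon of a single-exon transcript by 17 (1.41%) and 0.342%. Longer regions touch more exons, and these counts are not corrected for length. In all, 785 regions overlapped a gene body and 425 (35.2%) had at least 1 base in an exon or promoter. In the bodies of the genes that hold them, exons were 3.42% of the sequence, and of the region bases inside those bodies 19.7% were exonic.

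Single exons could fill a region. In Fat4, which encodes a giant protocadherin, 1 region (chr3:38788042-38791285, mm9) had 3015 bp in exon 1 of 17 and a second (chr3:38880337-38883096) 2586 bp in exon 9. In both Fat4 regions no base was covered by all 6 libraries. The region at Fat4 exon 1 was covered over 3244, 2130 and 2352 bp in the stress and 963, 2433 and 1127 bp in the control libraries, so control 2 lay among the stress values. Brd1, a bromodomain protein of histone acetyltransferase complexes, had 1381 bp of its exon 2 of 13 in a region of 2377 bp (chr15:88559168-88561544). That region was covered over 2106, 2257 and 2352 bp in the stress and 2143, 2019 and 2057 bp in the control libraries, most of its length in each. Zbtb20, a transcription factor needed for the CA1 field of the hippocampus, had 1605 bp of its penultimate exon in a region covered over 1882, 2066 and 2313 bp in stress and 1420, 2266 and 1419 bp in control libraries. Klhl11, an adaptor of ubiquitin ligases, had 1594 of 1609 bp in exon 2 of 2.

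Start sites were rarer inside these regions than inside the others. There were 5.20 start sites per Mb of their sequence, against 8.85, 10.6, 10.7, 10.3 and 10.5 per Mb in regions of 1, 2, 3, 4 and 5 libraries. Around all start sites the share of bases under these regions was 0.118% in the last 1 kb before the start and 0.172% in the first 1 kb after it. It then rose to 0.553% between 1 and 2 kb and 0.609% between 2 and 3 kb downstream, and fell to 0.131% between 9 and 10 kb. Upstream the highest value was 0.245%, between 1 and 2 kb before the start. Relative to the mean of the 20 bins, the peak at 2 to 3 kb was 2.66 for regions of all 6 libraries and 1.38 for regions of 1 library. Both kinds were low at the start itself, and the rise just downstream was steeper for the regions of all 6.

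**Figure D2:**
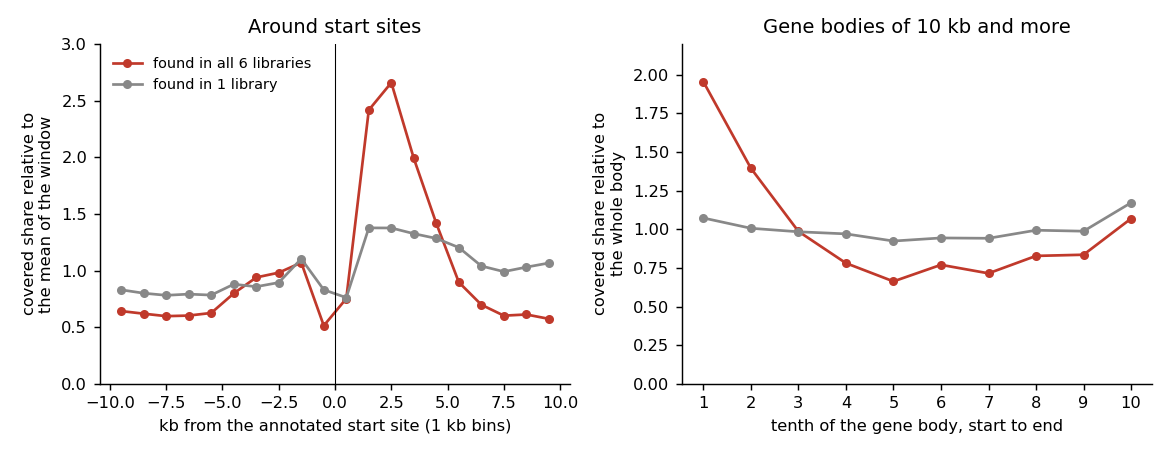
Position of regions found in all 6 libraries (red) and in 1 library (grey). Left, share of bases covered in 1 kb bins around 25634 start sites relative to the window's mean, with negative values upstream; right, share covered in each of 10 equal parts of the body of 13404 genes of 10 kb and more relative to the whole body. Regions of all 6 libraries reached 2.66 at 2 to 3 kb downstream and 1.96 in the first part.

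Along the bodies of the 13404 genes of at least 10 kb the regions crowded towards the start. Of 10 equal parts of the body, the first was covered 1.96 times as much as the whole body, the second 1.40 times and the fifth 0.663 times, and the last stood at 1.07. For regions of 1 library the same values were 1.07, 1.01, 0.924 and 1.17, an almost even course. Nacc2, a transcriptional repressor with a BTB domain, is an example, where the centre of 1 region lay 1.57 kb downstream of a start site. In Fnip2, a partner of folliculin in nutrient sensing, that distance was 2.16 kb, and in Entpd4, a nucleotide hydrolase of the Golgi, 2.65 kb.

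Covered lengths in the 11 regions over a start site varied to different degrees, and the 4 whose promoters are printed above were among the steadier. At Csf2ra (chr19:61304015-61305394, mm9) the peaks covered 1246, 1181 and 1176 bp in the stress and 899, 1346 and 1136 bp in the control libraries. At 9330111N05Rik (chr13:81102292-81103747), a non-coding transcript, they covered 1088, 1274 and 1188 bp in stress and 1248, 1267 and 1164 bp in control. Lsmem1 (chr12:40924867-40926492) had 1342, 1008 and 1626 bp against 1422, 1285 and 1068 bp. At Tacr2 (chr10:61714626-61716303), a receptor for the tachykinin neurokinin A, stress libraries had 1220, 1397 and 1313 bp and control libraries 1318, 1678 and 1054 bp. The groups overlapped at all 4. RNA of these genes was low, at 0.515 FPKM for Csf2ra, 0.186 for Lsmem1 and 0.0424 for Tacr2 in the control table, and 9330111N05Rik was listed at 0.

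The groups did not overlap at 2 of the 11, both covered more in stress. Over all 1207 regions 12.7% were covered more in every stress library than in any control library, and 2.07% the reverse. With so few regions, 2 of 11 is not read as particular to start sites. Over Mir6769b and Unc13a (chr8:74153753-74155266) stress libraries covered 1000, 1350 and 1504 bp and control libraries 713, 888 and 807 bp. Over the start of Rn45s, the precursor of ribosomal RNA, they covered 2674, 2114 and 2826 bp and 679, 2014 and 1768 bp. Ribosomal RNA genes exist in many copies of which the genome build places few, so the Rn45s value is uncertain. The others were Eef2 with Snord37 (an elongation factor and a small nucleolar RNA inside it), Plekhg1 (an exchange factor for small GTPases), Islr (a secreted protein with leucine-rich repeats), Aars (alanyl-tRNA synthetase) and 6720468P15Rik. Their ranges over the 6 libraries were 925 to 2924 bp at Eef2, 870 to 2330 bp at Plekhg1, 1128 to 2145 bp at Islr, 824 to 1039 bp at Aars and 1053 to 4422 bp at 6720468P15Rik. Aars, at 15.6 FPKM in the control table, had the highest RNA of the 11 genes with a start site in a region. The start site of Eef2 itself lies outside.

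The strongest regions lay mostly outside genes. A score above 200 in every library was reached by 15 regions, of which 3 were in genes: Cdk5rap2 (a centrosome protein), Chl1 (a neural cell adhesion molecule) and Mdga2 (a regulator of synapse formation). The highest was chr9:35112282-35113432, intergenic, with scores from 1796 to 2131 and 1083, 1008 and 1006 bp covered in stress and 1094, 1001 and 1086 bp in control libraries. Another 3 of the 15 were neighbours on chromosome 2, the strongest of them chr2:98506240-98507912 with scores from 1378 to 1930. Within 200 kb of the first region of a chromosome lay 6 of the 15, and 1.24% of all regions found in 6 libraries against 0.205% of the other regions. Mouse chromosomes begin with repeated sequence near the centromere, and the part of repeats in these scores was not tested. Without these 15 regions the exon share was 13.4% and the number of genes holding a region 775. Between chromosomes the regions differed little, as between 1.31% and 1.95% of the regions of each chromosome were found in all 6 libraries.

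Within the regions, peaks of the stress libraries covered slightly more sequence, but the groups overlapped. This comparison asks whether the peaks shared by all libraries differ in extent after acute restraint, and the rule asked only for 1 shared base per library and treated both groups alike. The mean share of a region under peaks was 75.3, 83.6 and 84.2% in the stress and 71.5, 79.0 and 73.1% in the control libraries, 81.0% ± 5.00 against 74.5% ± 3.97 (SD, n = 3 and 3). The difference of 6.51 percentage points did not separate the groups (exact two-sided permutation test, p = 0.2, where 3 against 3 cannot go below 0.1). Peaks outside the regions had median lengths of 963, 1054 and 1038 bp in the stress and 885, 956 and 923 bp in the control libraries. Longer peaks in stress libraries were therefore not particular to these regions. The share moved with the length of the lists: it was 83.6 and 84.2% against 79.0% in the 3 libraries with the longest lists and 75.3% against 71.5 and 73.1% in the 3 with the shortest. In DNA of a mixed tissue, more 5hmC per cell and more cells of a type cannot be told apart.

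Exon bases made up a larger part of what stress libraries covered. Of the bases covered within the regions, 14.4, 14.4 and 14.2% were exonic in the stress and 13.5, 13.6 and 13.0% in the control libraries (14.3% ± 0.107 against 13.4% ± 0.286, SD, n = 3 and 3). The groups did not overlap, and the difference of 0.915 percentage points gave p = 0.1 in the exact two-sided permutation test, the smallest value this design allows. A higher exon share of stress libraries over all peaks was known from the same lists, so this is not independent of it. The promoter share (3.04% ± 0.189 against 2.96% ± 0.0173, p = 0.4 in the exact permutation test), the intron share (50.9% against 51.6%, exact permutation p = 0.2) and the intergenic share (31.8% against 32.1%, exact permutation p = 0.5) overlapped between the groups. Over the 6 comparisons of the groups given here, the Benjamini-Hochberg adjusted value of both smallest p (exact permutation) was 0.3, and the design could not have reached 0.05.

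The contrast was also made with regions taken whole, which re-cuts the same covered bases and is not separate support for the exon share. It was not among the results recomputed under the alternatives below. The 181 regions with their centre in an exon were covered over 75.3, 85.5 and 86.7% of their length in the stress and 67.6, 78.1 and 68.3% in the control libraries. All others were covered over 75.3, 83.3 and 83.7% and 72.1, 79.2 and 73.9%. Exon-centred minus other regions therefore came to 0.00931, 2.18 and 3.01 points in the stress and -4.53, -1.08 and -5.63 in the control libraries, without overlap between the groups (difference 5.48, exact two-sided permutation p = 0.1). This difference also moved with the length of the lists: it was 2.18 and 3.01 against -1.08 in the 3 libraries with the longest lists and 0.00931 against -4.53 and -5.63 in the others.

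**Figure D3:**
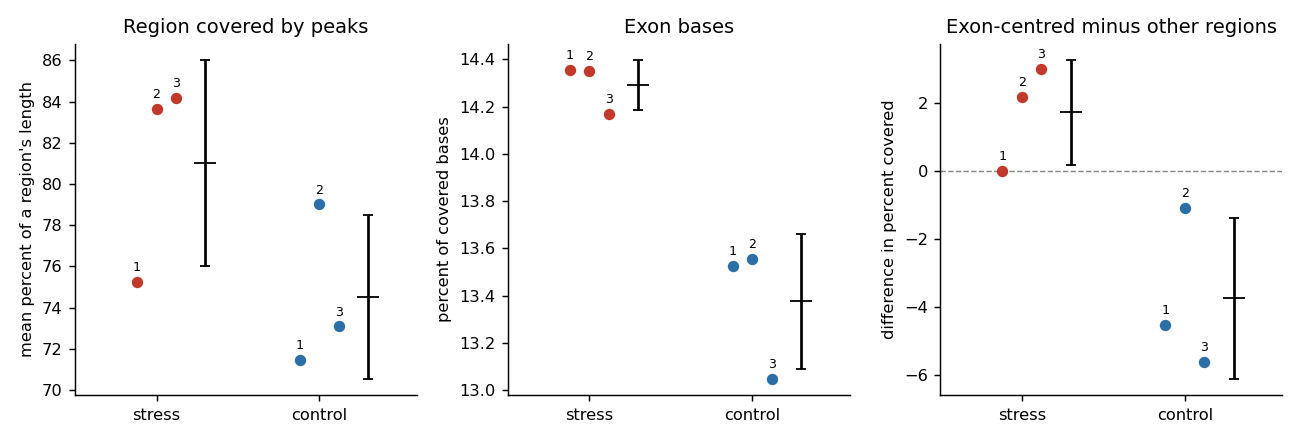
Values of each library (points, numbered by replicate) with mean and SD (n = 3) beside them. Left, mean percent of a region under peaks; middle, exon percent of the covered bases, on an axis that does not start at 0; right, percent covered in exon-centred regions minus that in all others. Stress and control libraries overlap on the left (75.3 to 84.2 against 71.5 to 79.0) and do not overlap in the middle and on the right.

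Counted region by region, 153 of 1207 (12.7%) were covered more in every stress library than in any control library, and 25 (2.07%) the reverse. Over all 74401 regions the shares were 2.62% and 0.589%, but most of those have no peak in several libraries. Among the 6955 regions of 4 or 5 libraries they were 13.6% and 1.97%, so the shares in the regions of all 6 were near that background and are not particular to them. The split depends on scale. With each covered length divided by the library's sum over the regions, 70 regions (5.8%) were higher in every stress and 123 (10.2%) in every control library. Covered lengths of single regions are given unscaled throughout. A lack of overlap at a named gene need not hold after this division. Leaving out stress 1 raised the first count to 331, and leaving out control 2 to 334. The second count rose to between 52 and 74 when any library other than stress 1 was left out. By class, the unscaled counts were 38 against 2 of 181 exon-centred regions (21.0% and 1.10%) and 5 against 0 of 32 promoter-centred (15.6% and 0%). They were 68 against 12 of 576 intron-centred (11.8% and 2.08%) and 42 against 11 of 418 intergenic ones (10.0% and 2.63%). Scaled counts by class, and the same classes among regions of 4 or 5 libraries, were not compared, so no class is singled out.

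The largest difference in favour of stress was at a place where 2 genes end. Over the end of Mical1, an enzyme that oxidises actin, and the end of Smpd2, a neutral sphingomyelinase, on the opposite strand (chr10:41204506-41208321), stress libraries covered 3092, 3669 and 2886 bp and control libraries 931, 1705 and 1772 bp. All 6 libraries had 1 peak there, but that of control 1 lay on one side of the centre and those of controls 2 and 3 on the other. The region spans exons 17 to 24 of 24 in the longer isoform of Mical1 and 6 to 10 of 10 of Smpd2. In Med26, a subunit of the Mediator complex of transcription (chr8:75018847-75021380), stress libraries covered 2254, 2211 and 2268 bp and control libraries 876, 825 and 680 bp. Of that region 2159 bp are in exon 3 of 3, and stress 2 and 3 spanned with 1 peak what stress 1 covered with 2 peaks. In both regions no base was covered by all 6 libraries.

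Further regions with no overlap between the groups included 1 of Lgmn. In that region of Lgmn, the gene of the protease legumain (chr12:103670060-103673016, intron), stress libraries covered 1854, 2882 and 2049 bp and control libraries 1025, 1003 and 925 bp, and the control peaks all lay in the part of the region that stress peaks largely covered too. Mink1, a kinase (chr11:70416985-70420006), had 2558, 2824 and 3022 bp against 941, 1504 and 1388 bp. In Adamts1, a secreted metalloprotease, a region over exons 2 to 7 of 9 (chr16:85797628-85800939) had 3131, 2437 and 3218 bp against 2049, 1567 and 960 bp. Smyd3, a methyltransferase, had 2922, 2005 and 3037 bp against 1182, 1290 and 1487 bp in an intron (chr1:181403928-181407054). In Cep120, a centriole protein, control 2 came close to the stress libraries: 3376, 3649 and 3471 bp against 1102, 3276 and 1983 bp. No base of the Cep120 region was covered by all 6 libraries.

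The largest difference in favour of control was intergenic (chr6:112555123-112558971), with 1536, 1718 and 2261 bp in the stress and 3486, 2580 and 3500 bp in the control libraries. A second intergenic region (chr10:125369311-125371081) had 628, 891 and 822 bp against 1264, 1735 and 1543 bp. In Cdkn2aip, a regulator of p53 signalling (chr8:48796053-48797821), 1596 bp of the region were in the last of 3 exons, and stress libraries covered 1012, 1068 and 1503 bp against 1602, 1696 and 1601 bp. Regions in introns of Aaed1, Nt5dc1 and St6galnac3 (a sialyltransferase) were shorter in stress libraries, with differences of the means (stress minus control) of -404, -387 and -364 bp.

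**Figure D4:**
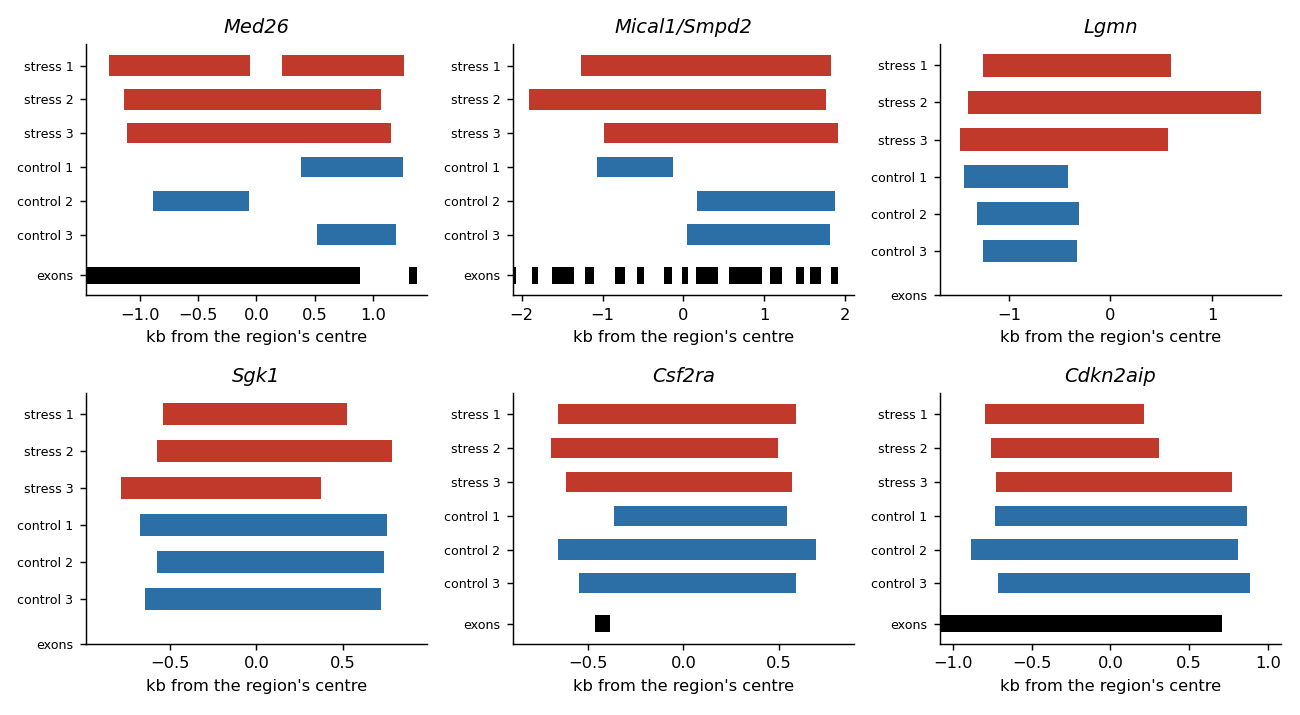
Peaks of each stress (red) and control (blue) library in 6 regions found in all libraries, with annotated exons in black, plotted as kb from the region's centre. At Mical1/Smpd2 all stress peaks, and at Med26 those of stress 2 and 3, reach across both places where control libraries have their shorter peaks; at Sgk1 and Csf2ra the groups overlap.

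The regions lay in 778 of 22835 genes (3.41%). The share rose with gene length, from 1.08% of genes under 10 kb to 2.61% at 10 to 50 kb, 8.48% at 50 to 200 kb and 14.9% over 200 kb. A single region was held by 716 genes, 2 regions by 59 and 3 regions by Vwa8 (a mitochondrial ATPase), Nacc2 and Exoc4 (a subunit of the exocyst, which tethers secretory vesicles). In Nacc2 the region nearest to the start was covered over 1529, 1598 and 1825 bp in stress and 872, 891 and 655 bp in control libraries, while the groups overlapped in the other 2, which had 1198, 1268 and 1621 against 1432, 1072 and 948 bp and 861, 1086 and 1072 against 822, 1079 and 956 bp. The regions of Nacc2 thus did not move as a block. In Vwa8 the third region went the other way, with 1532, 1336 and 1432 bp in stress and 1605, 1810 and 1542 bp in control libraries.

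By length in regions, the next genes were Entpd4, Sfi1 (a centrosome protein that holds the longest region, of 5362 bp), Fat4, Dst (dystonin, which links cytoskeletal filaments), Ski (a repressor of TGF-beta signalling), Fnip2, Ppm1h (a phosphatase), Lgmn and Etv6 (an ETS repressor), with 2 regions each. Etv6 showed how even a region could be: its region at chr6:134136577-134138947 was covered over 1962, 2256 and 2276 bp in stress and 1983, 2347 and 1759 bp in control libraries. A region of Ski (chr4:154550439-154551884) had 1269, 1311 and 1320 bp against 1177, 1141 and 1317 bp. Sfi1 showed the opposite, 4040, 1828 and 4380 bp against 3401, 1817 and 5176 bp in its longest region.

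Among genes of the stress response, Sgk1, a kinase induced by glucocorticoids, held 2 regions, both intronic. The first (chr10:21622138-21623342) was covered over 917, 1029 and 990 bp in stress and 985, 1063 and 925 bp in control libraries. The second (chr10:21668533-21670102) had 1063, 1361 and 1157 bp against 1427, 1311 and 1361 bp. The groups overlapped in both. The RNA value of Sgk1 was 7.34 FPKM for the control and 21.9 FPKM for the stress group. Dnmt3a, a DNA methyltransferase, held 1 intronic region (chr12:3879216-3880640). It was covered over 1231, 1394 and 1228 bp in stress and 1209, 954 and 941 bp in control libraries, without overlap in these unscaled lengths. The RNA of Dnmt3a was at 5.31 and 5.80 FPKM. Nr3c1, Fkbp5, Fos, Arc, Bdnf, Tet1, Tet2, Tet3 and Dnmt1 held none, and their most shared regions had peaks in 1 to 4 libraries.

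Of the 14 functional gene lists, cytoskeleton and small GTPase regulators held regions most often, 8 of 36 genes (22.2%) against 3.41% of all genes. Of the 13 list members over 200 kb 7 held one, against 14.9% of all genes of that length, and of the 16 of 50 to 200 kb 1 did, against 8.48%. They were Dst, Macf1, Dock1, Asap1, Agap1, Sptbn1, Dock9 and Ank3, which include spectrin-family linkers and regulators of small GTPases. Dock1, an activator of Rac, had a region (3344 bp) covered over 3291, 3259 and 3319 bp in stress and 2952, 3207 and 2219 bp in control libraries. One of the 2 regions of Macf1, a linker of actin and microtubules, had 1055, 1049 and 1108 bp against 906, 1030 and 795 bp. The groups overlapped in all other regions of this list, as in Asap1 with 1953, 2005 and 1814 bp against 2076, 2105 and 1902 bp.

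Among the functional lists, genes of neurogenesis and neuronal differentiation came next, with 5 of 29 (17.2%): Zbtb20, Auts2, Tcf4, Nfib and Mef2d. Over all genes 3.41% held a region. Of the 6 list members over 200 kb 4 held one, against 14.9% of all genes of that length. Of the 5 of 50 to 200 kb 0 did, against 8.48%. Mef2d had 1216, 1034 and 1092 bp in stress and 910, 1024 and 866 bp in control libraries, without overlap in these unscaled lengths. Glucocorticoid-induced genes had 4 of 29 (13.8%), Sgk1, Nr1d1 (a clock repressor), Ctgf and Nfkbia (the inhibitor of NF-kappa-B). Stress hormone signalling had 3 of 24 (12.5%), among them Sgk1 and Ncoa2, a receptor cofactor. These lists are small, and their shares were not tested against genes of like length. The groups overlapped in the region of Ncoa2, with 1126, 1782 and 1095 bp against 1997, 1977 and 1110 bp. Nr1d1 varied within groups, with 943, 2095 and 3266 bp against 1340, 1349 and 704 bp over exons 2 to 7 of 8.

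Histone-modifying enzymes had 4 of 38 (10.5%), against 3.41% of all genes. Of those over 200 kb 1 of 4 held a region, against 14.9% of all genes of that length. Of those of 50 to 200 kb 1 of 20 did, against 8.48%. Kdm4a, a demethylase of histone H3, had a region of 3270 bp over the last exons (20 to 22 of 22), covered over 1740, 3021 and 3072 bp in stress and 1531, 1614 and 1280 bp in control libraries. Kat6a, an acetyltransferase, had 1 region with 1350, 1461 and 1337 bp against 1066, 1242 and 1155 bp and 1 in which the groups overlapped. They also overlapped in Kdm6b and in both regions of Hdac9. The list of DNA methylation and 5hmC machinery had 2 of 23 (8.70%), Dnmt3a and Uhrf2. Both are among its 7 genes of 50 to 200 kb. The region of Uhrf2, a reader of 5hmC, had 916, 1026 and 1099 bp in stress against 1109, 830 and 762 bp in control libraries.

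Genes of synaptic transmission and wiring held regions at 0 to 7.89% of a list, against 3.41% of all genes. There were 2 of 30 synaptic plasticity genes (among them Shank2), 2 of 30 voltage-gated channels (Kcnd3 and Kcnq3), 2 of 29 genes of presynaptic release (among them Unc13a), 3 of 38 of axon guidance and cell adhesion (Ntn1, Plxna1 and Cdh11), 1 of 23 glutamate receptors (Grm2) and 0 of 19 of GABA signalling. Of genes over 200 kb, a region was held by 2 of 12 in the plasticity list, 2 of 15 channels, 1 of 12 in the release list, 0 of 28 in axon guidance and 0 of 15 glutamate receptors, against 14.9% of all genes of that length. Kcnd3, a potassium channel, had 2020, 1752 and 1479 bp in stress and 710, 963 and 936 bp in control libraries, without overlap. In Shank2, a scaffold of the postsynaptic density, the groups overlapped, with 1154, 997 and 977 bp against 1030, 766 and 1112 bp. None of 30 immediate early genes, whose median length is 4.31 kb, held a region, against 1.08% of all genes under 10 kb. Of 18 housekeeping genes 2 did (Eef2 and Ywhaz), against 3.41% of all genes.

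With all lengths pooled, markers of cell types held regions about as often as all genes: 5 of 160 markers (3.12%) did, against 3.41%. Length changed this, since all 5 are over 200 kb, where 14.9% of all genes held a region. No marker of 50 to 200 kb held one, against 8.48% of all genes of that length. Regions were found in Stxbp6 (1 of 10 dentate granule cell genes), Slc4a4 (1 of 13 astrocyte genes), Lhfpl3 (1 of 10 genes of oligodendrocyte precursors) and Plekhg1 and Rora (2 of 9 genes of the thalamus and neighbouring tissue), and in none of the other 11 marker lists. Of their genes over 200 kb, these 4 lists had 1 of 1, 1 of 1, 1 of 2 and 2 of 2 with a region. The inhibitory neuron and CA3 lists had 0 of 2 each. Rora, a nuclear receptor, was covered over 1640, 1586 and 1541 bp in stress and 1491, 1379 and 1409 bp in control libraries. The groups did not overlap in these unscaled lengths. Summed RNA of the thalamus list was 42.8 FPKM for the control and 54.9 FPKM for the stress group, and 8 of its 9 genes reached 1 FPKM. The part of neighbouring tissue in the difference at Rora was not tested.

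Genes that held a region were more often listed with RNA. At least 1 FPKM, taken as the mean of both tables, was reached by 636 of 778 such genes (81.7%) and by 46.8% of all 22835 genes. The same held in each length class: 70.6% against 28.7% of genes without a region under 10 kb, 79.7% against 53.3% at 10 to 50 kb, 83.6% against 66.2% at 50 to 200 kb, and 89.6% against 74.0% over 200 kb. Among genes of all lengths that reached 1 FPKM, the median in the control table was 5.92 FPKM for those with a region and 5.17 for those without. By length class it was 4.64 against 5.02 under 10 kb and 6.26 against 5.04 at 10 to 50 kb. At 50 to 200 kb it was 5.55 against 5.45, and over 200 kb 7.40 against 5.82. These are descriptions of 1 deposited value per gene and group, without a test.

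**Figure D5:**
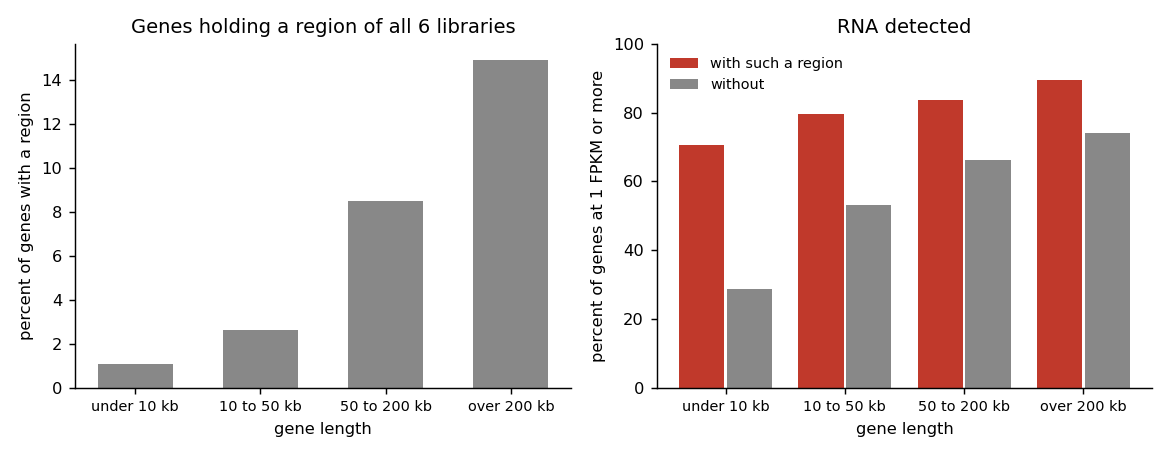
Left, percent of genes of each length class that hold a region found in all 6 libraries; right, percent of genes at 1 FPKM or more (mean of both tables) with (red) and without (grey) such a region. The share of genes with a region rises from 1.08% to 14.9%, and the red bars exceed the grey ones in all 4 classes.

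RNA of the genes holding a region hardly moved between the tables. Differences are log2((stress + 1)/(control + 1)) of the authors' FPKM, 1 table per group, so there is no error and no test. The median was 0.11 over the 636 genes and 0.084 over all 10686 genes that reached 1 FPKM. With the 1 added, the stress value was at least 2-fold higher for 1 of the 636 (0.157%), Sgk1, and at least 2-fold lower for 0. Over all 10686 genes these shares were 0.299% and 0.281%. Without it, the FPKM of Nfkbia, Rbks and Cstad given below also differ more than 2-fold. The highest differences after Sgk1 were those of Nfkbia (2.48 and 5.72 FPKM in control and stress), F3, the initiator of blood clotting (5.99 and 9.82), Pigf (4.47 and 7.40) and Arid5b (2.82 and 4.81). The lowest were Rbks, a ribokinase (2.08 and 0.917), Cstad (1.97 and 0.962) and Pus1, a pseudouridine synthase (2.94 and 1.85).

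The median RNA difference was close to that of all 636 genes whichever way the extent of a region differed. The 111 genes with a region covered more in every stress library had a median RNA difference of 0.11, the 12 genes with a region covered more in every control library one of 0.10, and the 171 genes with an exon-centred region one of 0.12. Among the genes with the highest RNA differences, Srf, a transcription factor of activity-dependent genes, had a region without overlap between the groups (1739, 2063 and 1917 bp against 969, 912 and 1552 bp), and its RNA was at 5.30 and 7.70 FPKM. Cstad, with one of the lowest, also had one (1200, 1321 and 1136 bp against 1124, 988 and 1038 bp). At Nfkbia the groups overlapped, with 1456, 1140 and 1333 bp against 1332, 1160 and 1148 bp.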

How the data were processed

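The authors deposited 1 list of 5hmC peaks per library with a score per peak (lowest 50, peak names as MACS writes them) and 1 table of RNA per group with FPKM for RefSeq transcripts. Per the submitters' processing notes, Bowtie 0.12.9 aligned reads to mm9, and TopHat 1.0.12, Cufflinks 2.1.1 and Cuffdiff 2.1.1 made the RNA tables. The peak caller's version and any input library are not given in the sources used here. Per the labels' protocols, each 5hmC library had between 25 and 35 M reads of 50 nt that aligned to 1 place. The deposited peak score ranked peaks within a list, and 1 score limit of 200 in every list marked the strongest regions. The depth per peak is unknown, so no counting interval is given.

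Peaks on chromosomes 1 to 19 were merged when they shared at least 1 bp. Bases were called promoter up to 1 kb from a start site, otherwise exon, intron or intergenic, using the transcripts in the control RNA table. Isoform FPKM were summed per gene, and RNA differences were taken for genes whose mean of both tables reached 1 FPKM, with a pseudocount of 1, which understates changes of low genes. Groups were compared by exact two-sided permutation over 20 assignments of the libraries. The scripts were tested on planted regions: 200 of 200 were found, and 50 of 50 made longer in stress were called, beside 4 of the others. The planted peaks shared a centre and, within a group, had nearly equal widths. This checks the code and does not show how well differences among real, more variable peaks are found. Genes were named by a rule: most or longest regions, highest scores, start sites, largest group differences, listed genes and 11 fixed genes; Kdm4a, Brd1 and other single examples, and the RNA extremes, were named after their values were seen. The regions, lists and rules were chosen with earlier results of these data known. Replicates are pools of different mice, per the labels' protocols. Same-numbered stress and control libraries did not deviate together (correlations of 0.0242, -0.0152 and -0.0369 over 1207 regions). Alternatives covered the number of peaks, score, overlap, merging, promoter width, RNA settings and single libraries. Values of some listed genes are not reported here.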

Additional observations from a re-analysis of the deposited data

How the results depend on the processing

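Without the 15 strongest regions (chosen after seeing the data) every result that was recomputed kept its direction and stayed within its spread or 1.5 times its count. The RNA results were not recomputed without them. Leaving out each library in turn, with regions then found in all the other 5, gave 1360 to 1932 regions, exon shares of 10.9 to 13.0%, promoter shares of 3.03 to 3.57% and 850 to 1188 genes holding a region. With the members kept, it gave 203 to 334 regions covered more in every stress and 37 to 74 in every control library, where fewer conditions raise each count, stress minus control differences of 4.93 to 9.39 percentage points in the covered share (exact permutation p 0.2 to 0.4) and of 0.750 to 1.00 in the exon share (exact permutation p = 0.1 each time). The numbers of stress and control libraries pair by number only. With the replicate block, the 2 differences were 6.51 and 0.915 with p = 0.25 in an exact permutation of signs, the smallest it can give, and 325 regions were longer in stress and 69 in control in all 3 pairs. With lists trimmed to the length of the shortest the exon share was 14.3%, the promoter share 3.47% and the count of regions covered more in every control library 16. With the higher-scoring 50% of each list there were 504 regions in 323 genes, with exon and promoter shares of 14.3% and 3.74%. The exon share was 11.7% where each library's peaks had to span 50% or more of a region. It was 14.5% (promoters 2.72%) with 500 bp around peak centres, 10.2% (promoters 14.9%) with promoters of 2.5 kb, and 15.0% (promoters 2.65%) by the class at the region's centre, the last chosen after seeing the data. Dividing by the library's sum gave 70 regions for stress and 123 for control, which turns the split round. The median RNA difference was 0.084 with no filter (median control level 4.33 FPKM), 0.12 with a pseudocount of 0.1 and 0.025 when centred on all genes, whose own median was 0.084. No alternative turned the sign of the difference in covered share, in exon share or in RNA. Depth per peak is unknown, and 3 against 3 libraries limit every comparison.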
